A study of Mus musculus with 24 samples.

Results

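Control LSK progenitors from adult bone marrow, taken at 8wk, were compared with control LSK progenitors from the marrow of young mice at P14. Members were chosen by label: the 4 libraries of the group 8wk_Control and the 4 of the group P14_Control, 8 of the 24 libraries in the series, with every gene of the count table. LSK cells are marrow or liver cells that lack lineage markers and carry Sca1 and KIT, and this gate holds the blood stem cells and multipotent progenitors. In both groups the source was Mus musculus bone marrow, the genotype was labelled control, and the sorted cells were kept in culture for 48 h before total RNA was extracted. The other libraries came from LSK cells of the same 2 ages with the Tet-On-ME transgene, which encodes the leukaemia fusion MLL::ENL and was induced in culture, and from control and ME cells of the liver at E16. Strain, sex, the animals behind each library and whether control cultures received the inducer were not given in the sources used here. If replicates were not separate animals, the p-values reflect only variation among the samples as prepared, and this can be technical.

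Blood progenitors of the fetus and newborn divide fast and use a set of RNA-binding and chromatin proteins that adult cells largely switch off. At its core stand LIN28B, which blocks the maturation of let-7 microRNAs, and the let-7 targets HMGA2 and the IGF2BP proteins. Adult stem cells are known to divide rarely and to keep genes of the interferon response and of antigen presentation on at a low level.

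The 8 libraries held 39.3 to 69.3 M counts (M, 1e6) and 23125 to 25501 genes with at least 1 count. An exact two-sided permutation test found no difference in totals between the groups (60.2 ± 10.2 M at P14 and 55.5 ± 13.2 M at 8wk, SD, n = 4, p = 0.629; the lower limit of p with these group sizes is 0.0286). Levels are in CPM, counts divided by the library size and multiplied by 1e6, which cannot be compared between genes of different length. The sort markers were present in every library, with Kit at 376 to 641 CPM and Ly6a, which encodes Sca1, at 61.9 to 167 CPM. Markers of mature cells were mixed. Cd3e was at 0 in 7 of 8 libraries, Ly6g in 6 of 8 and Alb in 6 of 8, while Lyz2, of monocytes and neutrophils, was at 49.8 to 552 CPM and Lck, of T cells, at 30.9 to 79.1 CPM in every library. The summed neutrophil markers were at 91.5 to 1018 CPM and the summed monocyte and macrophage markers at 89.3 to 712 CPM. The library 8wk control replicate 1 stood apart in genes of granulocytes, monocytes and megakaryocytes, and results that rest on it are given with and without it. By Xist and Y-linked genes, 8wk replicate 1 and P14 replicate 4 were mainly male and the other 6 libraries mainly female. Y-linked genes summed to 4.88 and 2.15 CPM in 8wk replicates 2 and 3, against 0.0151 to 0.120 CPM in P14 replicates 1 to 3. Some male RNA in libraries called female was thus not excluded. Female libraries are here those with more Xist than Y-linked CPM.

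Between P14 and 8wk, edgeR called 1327 of 18931 tested genes higher at 8wk (7.01%) and 1057 lower (5.58%) at an adjusted p under 0.05. Of these, 319 rose and 150 fell by at least 1 on the log2 scale, and the median log2 fold change of all tested genes was 0.05. Leaving out 1 library moved the number of calls widely, from 929 without P14 replicate 3 and 989 without 8wk replicate 3 to 3115 without 8wk replicate 1. It was 1505 without 8wk replicate 2. Without 8wk replicate 3 or P14 replicate 1, most called genes were lower rather than higher (42.6% and 37.1% higher, against 55.7% with all libraries), and with scaling by library size alone 43.2% were higher. The median GC content of transcripts was 44.7% for genes called higher, 52.8% for genes called lower and 49.2% for all tested genes, and 72.4% of the calls were kept after a correction for GC content. That correction also turned the majority, with 940 genes higher and 1059 lower (47.0% higher). In bulk RNA, fewer cells of a type and less RNA per cell cannot be told apart.

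Genes of the fetal and neonatal program fell from P14 to 8wk. Igf2bp3, which encodes an RNA-binding protein that stabilises growth-related mRNAs, fell from 69.6 ± 3.71 to 0.993 ± 0.244 CPM (SD, n = 4 per group). This was the largest fall among genes of at least 5 CPM whose groups did not overlap, with clone-type symbols, pseudogenes and sex-linked genes passed over. Lin28b, the let-7 blocker, Igf2bp2, a relative of Igf2bp3, and the chromatin protein gene Hmga2 fell with it. Of 11 tested genes of the fetal list, 6 were lower and 0 higher, with a median log2 fold change of -0.88. For all tested genes the shares were 5.58% and 7.01% and the median was 0.05.

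Igf2bp3 (ENSMUSG00000029814, chr6:49085223-49214957, minus strand, build GRCm38) stood at 64.0, 71.4, 71.4 and 71.5 CPM in P14 replicates 1 to 4 and at 0.781, 1.10, 0.803 and 1.29 CPM in 8wk replicates 1 to 4. Every 8wk library was far below every P14 library, and the log2 fold change was -6.15 ± 0.23 (SE; edgeR adjusted p = 1.78e-14). Lin28b (ENSMUSG00000063804, chr10:45376620-45486395, minus strand) measured 10.9, 9.91, 8.58 and 7.46 CPM at P14 and 1.41, 1.47, 1.61 and 0.987 CPM at 8wk, a log2 fold change of -2.75 ± 0.27 (adjusted p = 1.97e-06). The lowest P14 library was well above the highest 8wk library. For Igf2bp2 (ENSMUSG00000033581, chr16:22059009-22163299, minus strand) the P14 libraries held 18.3, 16.9, 28.4 and 27.1 CPM and the 8wk libraries 3.33, 4.46, 3.72 and 4.42 CPM (log2 fold change -2.51 ± 0.22, adjusted p = 7.37e-07). P14 replicates 3 and 4 were the highest, and the groups did not overlap. Hmga2 (ENSMUSG00000056758, chr10:120361275-120476469, minus strand), an architectural DNA-binding protein gene of growing tissues, measured 26.1, 27.3, 24.3 and 18.4 CPM at P14 and 8.73, 9.96, 8.07 and 6.01 CPM at 8wk, a log2 fold change of -1.55 ± 0.17 (adjusted p = 6.52e-06). Again no 8wk library reached a P14 library. The calls of these 4 genes were kept in every alternative setting run, leaving out each library in turn included.

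The other called members of the list, chosen here after their values were seen, were Hmga1 and Arid3a. Hmga1, the close relative of Hmga2, fell from 369.7 ± 77 to 158 ± 28.2 CPM (log2 fold change -1.22 ± 0.15, adjusted p = 2.81e-05). Arid3a, a DNA-binding factor of early B cells, fell from 11.2 ± 3.33 to 6.07 ± 1.81 CPM (log2 fold change -0.88 ± 0.24, adjusted p = 0.0183), with 1 P14 library inside the 8wk range. The call of Hmga1 was kept in every alternative, and that of Arid3a was lost without P14 replicate 3, 8wk replicate 2 or 8wk replicate 3. Lin28a, the paralog of Lin28b, was near the floor, at 0.0215, 0, 0.0151 and 0.0169 CPM at P14 and 0.739, 0.105, 0.0349 and 0.0215 CPM at 8wk. Igf2bp1, the third member of its family, was low at both ages (0.151 ± 0.0439 and 0.180 ± 0.0806 CPM). At E16, where the source was liver, the controls stood higher than at P14 for each of the genes that fell: Igf2bp3 at 134 ± 7.22 CPM, Lin28b at 47.6 ± 6.66, Igf2bp2 at 71.4 ± 8.65, Hmga2 at 67.5 ± 4.24, Hmga1 at 554 ± 37.7 and Arid3a at 66.1 ± 8.44. These levels are given side by side without a test, since that step changes tissue as well as age.

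**Figure D1:**
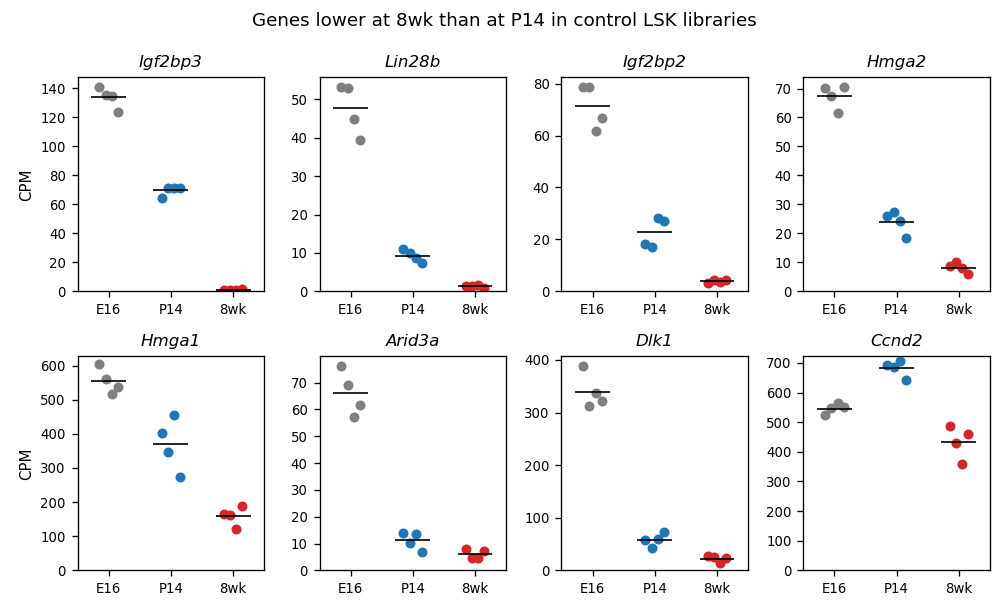
Level of 8 genes in each control library (CPM, vertical axes starting at 0) at E16, P14 and 8wk, with the horizontal line at the mean of 4 libraries. The 4 Igf2bp3 points at 8wk lie near 1 CPM, while the P14 points lie between 64.0 and 71.5 CPM. Ccnd2 is the panel in which the P14 points lie above the E16 points.

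Because LIN28B controls let-7, the let-7 sequences and the matching sites in the genes that fell are shown. Of 10 mature let-7 sequences in RefSeq (GRCm38.p6), 9 share the seed GAGGUAG at bases 2 to 8, which is in capitals in these examples.
mmu-let-7a-5p: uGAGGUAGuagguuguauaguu
mmu-let-7b-5p: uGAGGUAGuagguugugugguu
mmu-let-7g-5p: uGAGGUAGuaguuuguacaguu
The site that pairs with this seed, CTACCTC on the mRNA strand, was searched in the 3′UTR of 1 transcript per gene. It occurred in 10.4% of 13561 tested genes with a 3′UTR, in 14.5% of the genes called lower and in 6.56% of those called higher. The median 3′UTR length was 1139 bases for all, 1241 for lower and 934 for higher genes, and the sites per kb were 0.0734, 0.107 and 0.0587. Hmga2 and Lin28b held 4 sites each, Arid3a held 2, and Igf2bp2, Igf2bp3 and Hmga1 held 1 each. Among members that were not called, Igf2bp1 and Trim71 held 4, Lin28a held 2, Arid3b held 1 and Plag1 held 0. Sox17, the member that was not tested, was not searched. The site nearest the stop codon is shown for the 4 genes with the largest falls of the list, 5′ to 3′ on the mRNA strand, with the seed match in capitals.
Igf2bp3, chr6:49086785-49086810, minus strand: gtgcatttttactcaaCTACCTCagg
Igf2bp2, chr16:22059471-22059496, minus strand: aacacacaaataaaagCTACCTCagg
Lin28b, chr10:45381020-45381045, minus strand: cacccgggcgggaagtCTACCTCatg
Hmga2, chr10:120364222-120364247, minus strand: cgccgacattcaatttCTACCTCagc
A match is a run of letters and not a measured site, and mature let-7 RNA was not measured in these libraries.

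Imprinted growth genes are expressed from 1 parental copy and promote or restrain fetal growth. Of 15 tested, 3 were lower and 1 higher, with a median log2 fold change of -0.71. Over all tested genes 5.58% were lower and 7.01% higher, with a median of 0.05. Ndn, the growth suppressor necdin, measured 17.0, 14.2, 19.7 and 17.2 CPM at P14 and 11.0, 11.5, 9.46 and 9.66 CPM at 8wk, a log2 fold change of -0.71 ± 0.17 (adjusted p = 0.00840). All P14 libraries were above all 8wk libraries. Dlk1, a Notch-like surface protein of fetal progenitors, fell from 58.2 ± 12.9 to 22.4 ± 6.12 CPM (log2 fold change -1.38 ± 0.38, adjusted p = 0.0226). Peg3, a zinc finger gene, fell from 2.36 ± 0.537 to 0.603 ± 0.217 CPM (adjusted p = 0.0417), and Phlda2, a placental growth restrainer, rose from 2.58 ± 1.15 to 5.42 ± 0.390 CPM (adjusted p = 0.0362). The calls of Dlk1, Peg3 and Phlda2 were each lost without P14 replicate 3, P14 replicate 4 or 8wk replicate 3, and those of Peg3 and Phlda2 also without P14 replicate 2, 8wk replicate 2 or 8wk replicate 4. The call of Peg3 was lost without P14 replicate 1 as well.

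Outside the lists, the falls of at least 5 CPM included several receptors, enzymes and regulators. Hif3a, a partner and modulator of hypoxia-inducible factors, measured 6.81, 6.55, 7.32 and 7.46 CPM at P14 and 2.06, 1.18, 1.065 and 1.24 CPM at 8wk, a log2 fold change of -2.33 ± 0.21 (adjusted p = 7.37e-07). St8sia1, the enzyme that makes the ganglioside GD3, fell from 7.38 ± 0.653 to 0.882 ± 0.584 CPM (log2 fold change -3.05 ± 0.41, adjusted p = 1.46e-04). Hnf4a, a nuclear receptor best known in liver, measured 32.2, 24.2, 74.5 and 57.9 CPM at P14 and 13.4, 9.15, 9.24 and 9.74 CPM at 8wk (log2 fold change -2.18 ± 0.43, adjusted p = 0.00343). P14 replicates 3 and 4 were the highest for Hnf4a, and no 8wk library reached the lowest P14 library. Slc18a1, a vesicular monoamine transporter, had a log2 fold change of -1.80 ± 0.20 (adjusted p = 8.36e-06). Lpar1, a lysophosphatidic acid receptor, had a log2 fold change of -1.93 ± 0.38 (adjusted p = 0.00301), Ndnf, a secreted neuronal factor, -2.35 ± 0.48 (adjusted p = 0.00397) and Fbln1, the matrix protein fibulin 1, -1.74 ± 0.26 (adjusted p = 2.78e-04). For each of these genes the groups did not overlap and the call was kept in every alternative.

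Interferon response and MHC class I genes rose together at 8wk. Of 31 tested type I interferon response genes, 21 were higher and 0 lower, with a median log2 fold change of 1.20, and 24 had every 8wk library above every P14 library, which held for 7.88% of all tested genes. Of 20 tested MHC class I and peptide loading genes, 13 were higher and 0 lower, with a median of 0.63. The background is 7.01% higher and a median of 0.05. H2-Q7 and H2-Q6, class I genes of the MHC, showed some of the largest rises in the whole comparison, at log2 fold changes of 4.04 ± 0.50 and 3.86 ± 0.45.

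Among the response genes, Ifi44, an interferon-induced cytoplasmic protein gene, measured 3.05, 1.88, 2.66 and 2.7 CPM at P14 and 12.6, 15.8, 29.9 and 22.4 CPM at 8wk, a log2 fold change of 2.97 ± 0.46 (adjusted p = 5.35e-04). Usp18, which removes ISG15 from proteins and dampens interferon signalling, measured 3.89, 3.25, 4.61 and 3.02 CPM at P14 and 11.7, 16.3, 31.0 and 22.5 CPM at 8wk, a log2 fold change of 2.46 ± 0.36 (adjusted p = 2.78e-04). For both genes every 8wk library was above every P14 library, and 8wk replicate 3 was the highest. Zbp1, a sensor of left-handed nucleic acids, measured 0.0645, 0.194, 0.226 and 0 CPM at P14 and 1.58, 1.18, 2.36 and 2.25 CPM at 8wk, a log2 fold change of 3.84 ± 0.64 (adjusted p = 9.70e-04). Ifi27l2a, an interferon-induced mitochondrial protein gene, measured 1.16, 1.27, 1.57 and 1.37 CPM at P14 and 6.08, 6.29, 20.5 and 15.1 CPM at 8wk, a log2 fold change of 3.15 ± 0.58 (adjusted p = 0.00202). Its 8wk replicates 3 and 4 were above replicates 1 and 2, and all were above P14. Ifi27, its relative, rose from 49.7 ± 10.7 to 161 ± 49.9 CPM (log2 fold change 1.69 ± 0.21, adjusted p = 6.36e-05). Iigp1, an interferon-inducible GTPase outside the list, measured 0.537, 1.21, 1.91 and 1.32 CPM at P14 and 11.0, 11.2, 18.0 and 14.2 CPM at 8wk, a log2 fold change of 3.43 ± 0.48 (adjusted p = 2.32e-04). The P14 and 8wk libraries did not overlap for Zbp1, Ifi27 or Iigp1.

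Further called members, chosen after their values were seen, covered the effectors and the regulators of the response. Isg15, the ubiquitin-like modifier, rose from 2.46 ± 0.416 to 11.1 ± 5.07 CPM (log2 fold change 2.17 ± 0.38, adjusted p = 0.00130). Irf7, the factor that amplifies interferon production, rose from 6.52 ± 1.32 to 22.0 ± 6.11 CPM (log2 fold change 1.75 ± 0.37, adjusted p = 0.00482). Rsad2, the antiviral enzyme viperin, rose from 2.07 ± 0.279 to 6.57 ± 0.965 CPM (adjusted p = 0.00210). Irf9, the DNA-binding part of the ISGF3 complex, rose by 0.64 ± 0.12 log2 (adjusted p = 0.00258). These 4 calls were kept without each library in turn. In 15 of the 21 called members 8wk replicates 3 and 4 were both above replicates 1 and 2, and 8wk replicate 3 was the highest in 16. The count of called members ranged from 15 without 8wk replicate 3 to 21 without 8wk replicate 1 or 2, and it was 19 among the female libraries and 21 after GC correction.

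Receptors and signal genes that act before these targets gave 0 higher and 1 lower of 12 tested by edgeR. The all-gene shares were 7.01% higher and 5.58% lower. At an unadjusted edgeR p under 0.05, 0 of the 12 were higher and 3 lower. DESeq2 and limma-voom each gave 0 higher and 1 lower. Ifnar2, a chain of the type I interferon receptor, measured 94.8, 99.5, 99.8 and 102 CPM at P14 and 88.0, 72.0, 80.4 and 86.3 CPM at 8wk, a log2 fold change of -0.28 ± 0.08 (adjusted p = 0.0207). The groups did not overlap, but the call was lost without P14 replicate 3, P14 replicate 4, 8wk replicate 2 or 8wk replicate 3. Ifnar1, the other chain, gave -0.18 ± 0.09 (adjusted p = 0.187), and Tyk2, the kinase bound to it, -0.45 ± 0.22 (adjusted p = 0.178).

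In the class I list, H2-Q7 (ENSMUSG00000060550, chr17:35439155-35443773, plus strand) measured 6.51, 7.06, 34.7 and 10.2 CPM at P14 and 163, 227, 257 and 315 CPM at 8wk (adjusted p = 6.84e-05). P14 replicate 3 was above the other P14 libraries but far below the lowest 8wk library. H2-Q6 measured 2.54, 3.02, 16.0 and 5.62 CPM at P14 and 94.7, 95.0, 86.8 and 119 CPM at 8wk (adjusted p = 3.76e-05) and followed the same order at P14. These neighbouring genes are near-identical copies, so the split of reads between them is uncertain. H2-T22, a non-classical class I gene, measured 28.3, 26.2, 30.6 and 26.6 CPM at P14 and 60.7, 56.2, 77.4 and 71.8 CPM at 8wk, a log2 fold change of 1.25 ± 0.16 (adjusted p = 5.93e-05). B2m, the light chain shared by all class I molecules, measured 942, 979, 1099 and 1036 CPM at P14 and 1664, 1679.8, 1831 and 1713 CPM at 8wk, a log2 fold change of 0.76 ± 0.11 (adjusted p = 1.56e-04). The groups did not overlap for either gene. Psmb9 and Psmb8, immunoproteasome subunits named here after their values were seen, rose by 0.91 ± 0.13 and 0.63 ± 0.11 log2 (adjusted p = 2.32e-04 and 0.00142), and Tap1, the peptide transporter, by 0.58 ± 0.17 log2 (adjusted p = 0.0255). The call of Tap1 was lost without any of P14 replicates 1, 2 and 4 or 8wk replicates 1 and 4. P14 replicate 3 was the highest P14 library for 12 of the 13 called members. Leaving out 1 library in turn left 10 to 15 members called.

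At E16 the control levels of these genes were above the 8wk levels for most members named: Isg15 at 129.5 ± 31.6 CPM, Irf7 at 363 ± 105, Ifi44 at 150.2 ± 30.5, Usp18 at 209 ± 55.2, H2-T22 at 86.4 ± 17.0 and B2m at 1976 ± 48.3. H2-Q7 at 44.5 ± 15.7 CPM and H2-Q6 at 21.3 ± 5.71 CPM were below their 8wk levels. The summed level of the interferon list was 455 to 519 CPM in the P14 libraries, 760 to 1108 CPM at 8wk and 2672 to 4239 CPM at E16. Every P14 library was below every library of the other control ages.

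**Figure D2:**
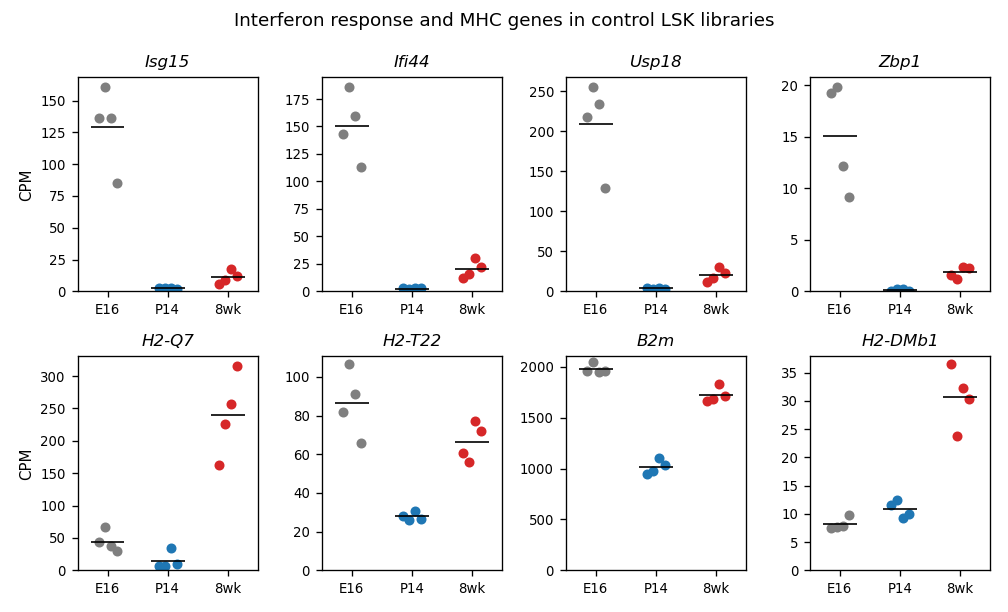
Level of 4 interferon response genes and 4 MHC genes in each control library (CPM, vertical axes starting at 0) at E16, P14 and 8wk, with the horizontal line at the mean of 4 libraries. All 8wk points lie above all P14 points in each panel. For Isg15, Ifi44, Usp18 and Zbp1 the E16 points lie above both, and for H2-Q7 and H2-DMb1 the 8wk points are the highest.

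Interferon-stimulated genes are driven by a promoter motif, the interferon-stimulated response element. The letters GAAANNGAAA were searched on both strands in the 300 bases around each start site in RefSeq (GRCm38.p6), from 250 before to 50 after it. The motif stood in 3.95% of 11622 tested genes with such a promoter, in 7.06% of genes called higher and in 2.82% of genes called lower. Of 20 interferon response genes with a promoter, 12 held it: 6 of 12 called higher and 6 of 8 not called. It occurred in 5 of 17 class I genes and in 0 of 9 class II genes. Promoter stretches of called genes are shown on the gene's strand, with each match in capitals; a match on the opposite strand reads TTTCNNTTTC.
Isg15, chr4:156200845-156200914, minus strand: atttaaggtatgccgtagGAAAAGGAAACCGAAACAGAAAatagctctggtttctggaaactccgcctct
Ifit1, chr19:34640774-34640843, plus strand: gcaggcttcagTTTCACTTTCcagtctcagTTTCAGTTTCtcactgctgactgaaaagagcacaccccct
Oas3, chr5:120777695-120777764, minus strand: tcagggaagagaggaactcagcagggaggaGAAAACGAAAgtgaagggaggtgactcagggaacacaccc
H2-T22, chr17:36042894-36042963, minus strand: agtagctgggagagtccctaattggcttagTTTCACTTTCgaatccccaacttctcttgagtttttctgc
B2m, chr2:122147518-122147587, plus strand: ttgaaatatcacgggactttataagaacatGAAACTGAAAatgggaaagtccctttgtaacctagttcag
The Isg15 stretch holds 3 overlapping matches and the Ifit1 stretch holds 2, while the others hold 1 each. A match describes the letters and does not show that a factor binds there.

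MHC class II genes gave 6 higher and 0 lower of 13 tested, with a median log2 fold change of 1.44. The all-gene shares were 7.01% higher and 5.58% lower, with a median of 0.05. H2-DMb1, which helps load peptides on class II molecules, measured 11.6, 12.4, 9.24 and 9.89 CPM at P14 and 36.5, 23.7, 32.3 and 30.3 CPM at 8wk, a log2 fold change of 1.51 ± 0.16 (adjusted p = 7.48e-06). No P14 library reached the lowest 8wk library, and this call was kept in every alternative. H2-Ab1, a class II chain, measured 9.47, 8.20, 5.45 and 3.49 CPM at P14 and 56.2, 21.1, 27.7 and 31.8 CPM at 8wk (log2 fold change 2.36 ± 0.58, adjusted p = 0.0129). Cd74, the invariant chain, measured 14.3, 13.7, 7.14 and 12.0 CPM at P14 and 100.3, 21.0, 18.3 and 27.2 CPM at 8wk (log2 fold change 1.83 ± 0.53, adjusted p = 0.0286). H2-Eb1, another chain, measured 1.31, 1.47, 0.346 and 0.591 CPM at P14 and 14.8, 1.97, 1.96 and 2.98 CPM at 8wk (log2 fold change 2.57 ± 0.74, adjusted p = 0.0286). For these 3 genes 8wk replicate 1 was the highest, and it was far above the other libraries for Cd74 and H2-Eb1. Without 8wk replicate 1 only 2 members were called and the median was 0.58. The count was 1 without P14 replicate 3, 1 among the female libraries and 3 without P14 replicate 1 or 4. The summed level of the class II list was 161 to 183 CPM at P14 and 214 to 460 CPM at 8wk, with the highest value in 8wk replicate 1. At E16 it was 417 to 592 CPM, so H2-DMb1 does not stand for the list in that step.

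Lists of the lymphoid lineage held calls in both directions. Ccr9, the chemokine receptor that guides progenitors to the thymus, measured 61.2, 63.8, 54.0 and 51.6 CPM at P14 and 7.18, 5.24, 13.5 and 12.0 CPM at 8wk, a log2 fold change of -2.60 ± 0.41 (adjusted p = 6.02e-04). Every P14 library was above every 8wk library.

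Trbc2, which encodes a constant region of the T cell receptor beta chain, measured 4.60, 4.61, 9.94 and 6.60 CPM at P14 and 0.167, 0.367, 0.209 and 0.0858 CPM at 8wk, a log2 fold change of -4.98 ± 0.52 (adjusted p = 6.26e-06). Its P14 levels were all above its 8wk levels. Lck, the kinase of T cell receptor signalling, measured 52.3, 59.9, 70.7 and 79.1 CPM at P14 and 30.9, 32.8, 45.2 and 42.6 CPM at 8wk (log2 fold change -0.79 ± 0.14, adjusted p = 0.00142). The calls of Ccr9, Trbc2 and Lck were kept in every alternative. Cd4, a T cell coreceptor also found on early progenitors, fell from 3.98 ± 0.707 to 1.76 ± 0.389 CPM (adjusted p = 0.0171), a call lost without P14 replicate 3 or 8wk replicate 2. Of 15 tested T and NK cell markers, 3 were lower and 1 higher, against 5.58% and 7.01% of all tested genes. The higher one was Cd3d, at 0 counts in all P14 libraries and 40 counts over the 8wk libraries. If counts are independent, this is at least 14.9-fold higher against a floor of 3 counts over the P14 group. Independence was not tested, and 59.8% to 66.9% of counts from 1 to 20 were even in the 8 libraries. The call of Cd3d was lost without 8wk replicate 1, 8wk replicate 4 or any 1 of the P14 libraries. Cd3e and Cd3g, chains of the same receptor complex, were at or under 0.239 CPM in every library.

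Of 17 tested lymphoid priming genes, 3 were lower and 2 higher, against 5.58% and 7.01% of all tested genes. Their median log2 fold change was -0.23, against 0.05 for all tested genes. Without 8wk replicate 1, 3 members of this list were lower and 1 higher. Satb1, a chromatin organiser of lymphoid progenitors, fell from 18.0 ± 2.45 to 10.7 ± 1.49 CPM (log2 fold change -0.75 ± 0.20, adjusted p = 0.0187), and Lsp1, a leukocyte actin-binding protein gene, fell from 113 ± 21.8 to 80.3 ± 7.06 CPM (adjusted p = 0.00891). Both calls were lost without P14 replicate 3, and that of Satb1 also without 8wk replicate 2 or 3. Dntt, the terminal transferase of lymphoid progenitors, named after its values were seen, measured 34.7, 40.2, 94.6 and 71.1 CPM at P14 and 162, 60.6, 145 and 166 CPM at 8wk (log2 fold change 1.15 ± 0.37, adjusted p = 0.0448). The Dntt groups overlapped, its call was lost without any of P14 replicates 1, 2 and 4 or 8wk replicates 1, 3 and 4, and at E16 it was at 0.895 ± 0.252 CPM.

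Immunoglobulin genes were split. Ighm, the mu heavy chain, measured 233, 236, 385 and 370.3 CPM at P14 and 157, 136, 188 and 188 CPM at 8wk, a log2 fold change of -0.87 ± 0.19 (adjusted p = 0.00560). Igkc, the kappa light chain, measured 0.430, 0.254, 0 and 0.0338 CPM at P14 and 11.9, 12.6, 30.1 and 9.21 CPM at 8wk, a log2 fold change of 6.54 ± 1.21 (adjusted p = 0.00234). Igha, the alpha heavy chain, measured 0.473, 0.150, 0.211 and 0.624 CPM at P14 and 7.53, 4.64, 9.86 and 4.01 CPM at 8wk (log2 fold change 4.18 ± 0.83, adjusted p = 0.00354). All 8wk libraries were above all P14 libraries for Igkc and Igha and below them for Ighm. Jchain, which joins secreted IgA and IgM, rose from 0.438 ± 0.177 to 6.24 ± 4.30 CPM (log2 fold change 3.82 ± 0.86, adjusted p = 0.00784), and these 4 calls were kept in every alternative. Of 16 tested B-lineage genes, 1 was higher and 1 lower, near the all-gene shares of 7.01% and 5.58%. The summed level of the list was 308 to 459 CPM at P14 and 220 to 314 CPM at 8wk. Cd72, a B cell inhibitory receptor, rose from 29.4 ± 0.810 to 45.8 ± 4.64 CPM (adjusted p = 0.0115), a call lost without 8wk replicate 3. Ms4a1, the B cell surface protein CD20, was at 0 in 5 of the 8 libraries and at or under 0.614 CPM in the others. The part of B or plasma cell RNA in these rises was not tested.

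**Figure D3:**
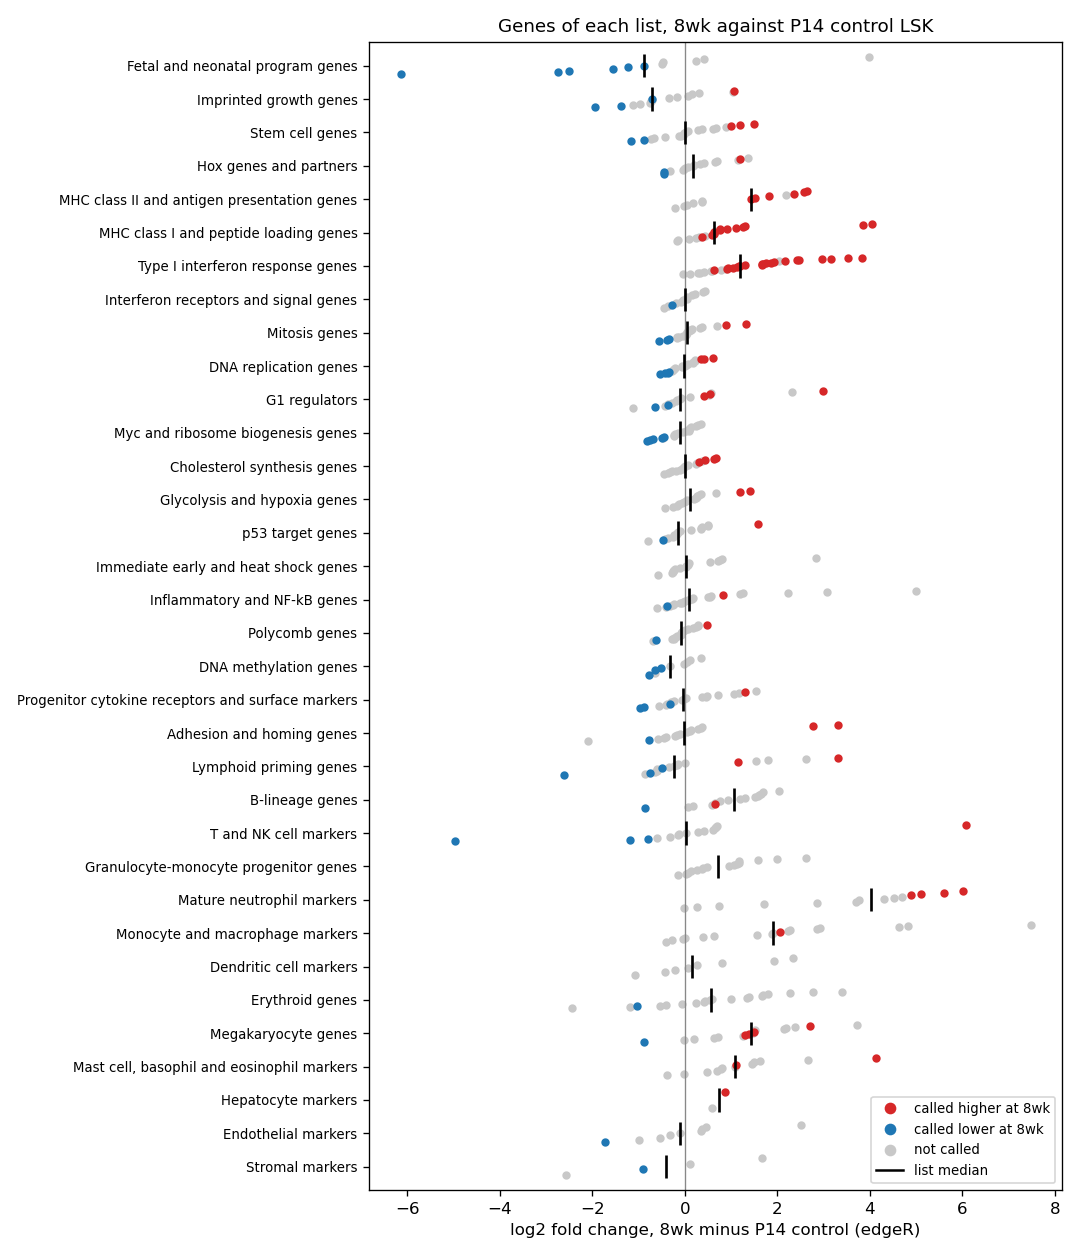
Log2 fold change, 8wk minus P14 control (edgeR, horizontal axis), of each tested gene in 34 gene lists (rows; the sex-linked list is not drawn), with called genes in red (higher) or blue (lower), other genes in grey and the list median as a black bar. The interferon and MHC rows lie mostly to the right of 0 with many red points. The fetal row holds the leftmost point, Igf2bp3 at -6.15, and the neutrophil row has a median of 4.03 with 4 red points.

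Stem cell genes showed no common direction. Of 20 tested, 3 were higher and 2 lower, with a median log2 fold change of 0.01. The all-gene shares were 7.01% higher and 5.58% lower, with a median of 0.05. Pdzk1ip1, a small membrane protein gene of stem cells, rose from 15.1 ± 1.30 to 29.9 ± 3.93 CPM (log2 fold change 0.99 ± 0.26, adjusted p = 0.0177). Hoxb5, a homeobox gene that marks long-term stem cells, was low at 0.319 ± 0.0996 CPM at P14 and 0.735 ± 0.145 CPM at 8wk (adjusted p = 0.0388). Mecom, a stem cell transcription factor, measured 51.1 ± 8.08 and 48.0 ± 7.19 CPM and was not called (adjusted p = 0.870). The call of Pdzk1ip1 was lost without P14 replicate 3 or 8wk replicate 3, and that of Hoxb5 without any 1 of 7 libraries, 8wk replicate 1 being the exception. The third higher gene was Vwf, described with the megakaryocyte genes.

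Among 20 tested cytokine receptors and surface markers, 3 were lower and 1 higher, against 5.58% and 7.01% of all tested genes. Without 8wk replicate 1, 3 of these markers were lower and 2 higher. Flt3, the receptor of multipotent and lymphoid progenitors, measured 374, 368, 443 and 447 CPM at P14 and 294, 168, 165 and 199.8 CPM at 8wk, a log2 fold change of -0.98 ± 0.21 (adjusted p = 0.00527). Its 8wk replicate 1 was the nearest to P14, and the groups did not overlap. Il18r1, an interleukin 18 receptor chain, measured 3.14, 3.98, 4.20 and 3.73 CPM at P14 and 9.19, 7.94, 11.8 and 8.22 CPM at 8wk, a log2 fold change of 1.30 ± 0.26 (adjusted p = 0.00337). Both calls were kept in every alternative. Cd34, the progenitor sialomucin, fell from 1410.2 ± 125 to 1123 ± 33.2 CPM (log2 fold change -0.33 ± 0.11, adjusted p = 0.0431), a call lost in 11 alternatives, among them without P14 replicate 2, 3 or 4 and without 8wk replicate 2, 3 or 4. The sort markers themselves were not called: Kit gave -0.31 ± 0.17 (adjusted p = 0.252) and Ly6a 0.71 ± 0.27 (adjusted p = 0.0828).

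Of 17 tested Hox genes and partners, 2 were lower and 1 higher, against 5.58% and 7.01% of all tested genes. Without 8wk replicate 1, 2 members of this list were lower and 2 higher. Hoxa9, a driver of progenitor self-renewal, measured 50.0, 59.95, 53.6 and 60.2 CPM at P14 and 35.5, 40, 42.3 and 44.7 CPM at 8wk, a log2 fold change of -0.46 ± 0.11 (adjusted p = 0.00891). The groups did not overlap. Hoxa10, its neighbour, gave 0.41 ± 0.15 (adjusted p = 0.0755) and Pbx2, a Hox cofactor, -0.44 ± 0.15 (adjusted p = 0.0486), a call lost in 12 alternatives, among them without P14 replicate 1, 2 or 3 and without 8wk replicate 2, 3 or 4. The genes behind the ME fusion and the gene in the series title did not pass the test in control cells: Kmt2a gave 0.19 ± 0.22 (adjusted p = 0.644), Mllt1 -0.33 ± 0.28 (adjusted p = 0.496) and Skida1 0.02 ± 0.31 (adjusted p = 0.982), the last at 0.403 ± 0.150 and 0.411 ± 0.135 CPM.

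Of 16 tested megakaryocyte and platelet genes, 4 were higher at 8wk and 1 lower, with a median log2 fold change of 1.43. Over all tested genes 7.01% were higher and 5.58% lower, with a median of 0.05. Selp, the platelet adhesion receptor P-selectin, measured 0.645, 2.80, 2.73 and 1.40 CPM at P14 and 22.8, 7.58, 6.84 and 12.4 CPM at 8wk, a log2 fold change of 2.71 ± 0.58 (adjusted p = 0.00532). Rab27b, a GTPase of platelet granules, measured 12.0, 15.8, 10.6 and 12.6 CPM at P14 and 47.4, 31.3, 28.2 and 26.8 CPM at 8wk (log2 fold change 1.39 ± 0.26, adjusted p = 0.00168). Itga2b, the platelet integrin subunit, measured 39.98, 30.6, 33.2 and 21.8 CPM at P14 and 115, 61.8, 45.5 and 85.8 CPM at 8wk (log2 fold change 1.30 ± 0.31, adjusted p = 0.0111). In all 3 genes 8wk replicate 1 was the highest, and the other 8wk libraries were also above every P14 library. Without 8wk replicate 1 the list gave 3 higher and 1 lower and a median of 0.79. Among female libraries it gave 2 higher and 1 lower and a median of 0.58. The fourth higher gene, Vwf, the clotting protein von Willebrand factor, was named after its values were seen and rose from 11.0 ± 3.29 to 31.1 ± 21.9 CPM (adjusted p = 0.0447). Its call was lost without any 1 of 7 libraries, 8wk replicate 3 being the exception.

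Markers of mature myeloid cells were highest in 8wk replicate 1, and the monocyte sum was higher in every 8wk library than in every P14 library. The summed level of the monocyte and macrophage list was 89.3 to 134 CPM at P14, 712 CPM in 8wk replicate 1 and 182 to 224 CPM in the other 8wk libraries. The summed level of the neutrophil list was 91.5 to 136 CPM at P14 and 94.7 to 1018 CPM at 8wk, with the highest value in 8wk replicate 1. Lcn2, a granule protein, measured 0.387, 0.449, 0 and 0.0506 CPM at P14 and 27.6, 0.813, 0.733 and 0.837 CPM at 8wk, and Chil3, a chitinase-like protein gene, 0.0859, 1.39, 0 and 0 CPM at P14 and 69.8, 2.83, 1.52 and 2.00 CPM at 8wk. Of 14 tested neutrophil markers, 4 were called higher with a median log2 fold change of 4.03, against 7.01% and 0.05 for all tested genes. Without 8wk replicate 1 the count of neutrophil markers was 0 and the median 0.75. Without P14 replicate 1, 3 or 4 the count was also 0. Lyz2, the lysozyme of monocytes and neutrophils, measured 63.5, 74.5, 54.8 and 49.8 CPM at P14 and 552, 138, 181 and 137 CPM at 8wk (log2 fold change 2.06 ± 0.59, adjusted p = 0.0288). Each 8wk library was above each P14 library for Lcn2, Chil3 and Lyz2. Lyz2 was the 1 monocyte marker called of 17, and this call was lost without 8wk replicate 1 or 3 or P14 replicate 1, 3 or 4. Of 16 tested granulocyte-monocyte progenitor genes, edgeR, DESeq2 and limma-voom each called 0, and 0 had an unadjusted edgeR p under 0.05. Their summed level was 552 to 1772 CPM at P14, 4678 CPM in 8wk replicate 1 and 693 to 1280 CPM in the other 8wk libraries. Their median log2 fold change was 0.72, and -0.05 without 8wk replicate 1. The part of these cells in the other rises was not tested.

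**Figure D4:**
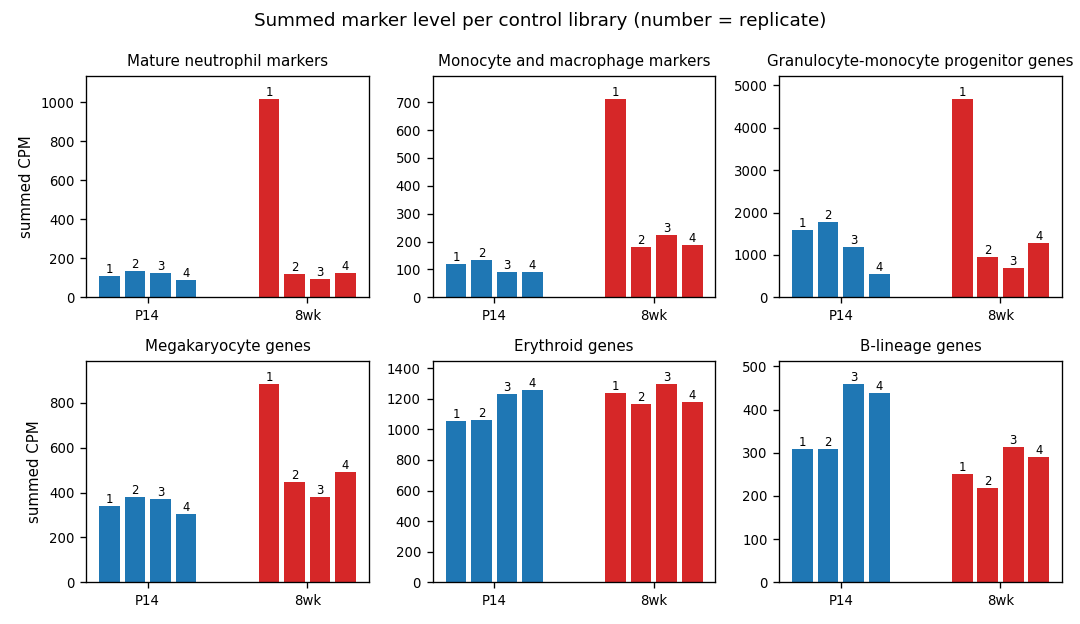
Summed level of 6 marker lists in each control library (CPM, bars from 0), P14 in blue and 8wk in red, with the replicate number above each bar. The bar of 8wk replicate 1 is the tallest in the neutrophil, monocyte, granulocyte-monocyte progenitor and megakaryocyte panels, while in the erythroid and B-lineage panels it lies among the other 8wk bars.

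The mast cell, erythroid, endothelial, hepatocyte, dendritic cell and stromal lists held 0 to 2 called genes each. The all-gene shares were 7.01% higher and 5.58% lower, with a median of 0.05. Of 13 tested mast cell, basophil and eosinophil markers, 2 were higher, with a median log2 fold change of 1.09: Fcer1a, the IgE receptor chain, at 0.129, 0.120, 0 and 0 CPM at P14 and 1.19, 1.42, 0.838 and 0.944 CPM at 8wk (adjusted p = 0.0217), and Mcpt8, a basophil protease, at 19.9 ± 8.36 and 42.5 ± 8.53 CPM (adjusted p = 0.0361). Both calls were lost without P14 replicate 3 or 4, and that of Mcpt8 also without 8wk replicate 1, 2 or 3. Without 8wk replicate 1 the list gave 1 higher and a median of 0.28, and its summed level was 87.9 to 266 CPM at P14, 404 CPM in 8wk replicate 1 and 252 to 296 CPM in the other 8wk libraries. Among 20 erythroid genes, with a median of 0.56, 1 was lower, the adult beta globin Hbb-bt, which fell from 184 ± 40.2 to 89.5 ± 19.1 CPM (log2 fold change -1.04 ± 0.26, adjusted p = 0.0145). Its near-identical copy Hbb-bs makes that split uncertain, and the call was lost without P14 replicate 3 or 8wk replicate 2. With 8wk replicate 1 left out, 2 erythroid genes were lower and the median was -0.63. Ramp2, a receptor partner listed with endothelial markers, fell from 7.10 ± 2.16 to 2.16 ± 0.214 CPM (log2 fold change -1.72 ± 0.27, adjusted p = 4.23e-04). It was the 1 gene called of 9 tested in that list, whose summed level was 228 to 306 CPM at P14 and 247 to 303 CPM at 8wk. Most of that sum came from Egfl7, Tie1 and Pecam1 (for Egfl7 143 ± 26.5 CPM at P14 and 132 ± 18.8 CPM at 8wk), while Cdh5, Cldn5, Plvap and Stab2 were each under 0.5 CPM in each of the 8 libraries. Afp, the fetal serum protein alpha-fetoprotein listed with hepatocyte markers, rose from 11.2 ± 1.55 to 20.5 ± 3.26 CPM (log2 fold change 0.87 ± 0.18, adjusted p = 0.00358), and Alb, the defining hepatocyte gene, was at or under 0.0262 CPM. Of 8 dendritic cell markers edgeR and limma-voom called 0 and DESeq2 called 1 lower, with 1 higher and 1 lower at an unadjusted p under 0.05. Of 4 stromal markers 1 was lower, Pdgfrb, a growth factor receptor (adjusted p = 0.0481), a call lost without P14 replicate 1, 3 or 4 and without 8wk replicate 1, 2 or 3.

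Cell cycle lists held calls in both directions. In the list of G1 regulators, which decide on entry into the cycle, 3 of 17 were higher and 2 lower. The all-gene shares were 7.01% higher and 5.58% lower. Ccnd2, cyclin D2, measured 691, 688, 705 and 642 CPM at P14 and 486, 429, 358 and 459 CPM at 8wk, a log2 fold change of -0.65 ± 0.11 (adjusted p = 9.31e-04). Cdkn2c, the CDK4 and CDK6 inhibitor p18, measured 2.00, 0.837, 0.662 and 0.304 CPM at P14 and 11.5, 7.86, 3.84 and 6.35 CPM at 8wk, a log2 fold change of 2.98 ± 0.53 (adjusted p = 0.00142). The groups did not overlap for either gene, and both calls were kept in every alternative. Cdkn2d, the related inhibitor p19, rose from 30.3 ± 1.33 to 44.5 ± 7.27 CPM (adjusted p = 0.0183) and Rbl1, the pocket protein p107, from 139 ± 15.6 to 186 ± 20.5 CPM (adjusted p = 0.00763), and both calls were lost without 8wk replicate 3, that of Cdkn2d also without P14 replicate 1.

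Of 20 tested mitosis genes, 2 were higher and 3 lower, and of 20 DNA replication genes, 3 were higher and 4 lower. Their medians were 0.06 and -0.03. For all tested genes the shares were 7.01% higher and 5.58% lower, with a median of 0.05. Mki67, the proliferation marker, rose from 18.6 ± 8.92 to 46.3 ± 13.9 CPM (log2 fold change 1.32 ± 0.39, adjusted p = 0.0295) and Cenpe, a kinetochore motor, from 16.6 ± 4.95 to 30.8 ± 6.46 CPM (adjusted p = 0.0165). Plk1, a mitotic kinase, fell from 192 ± 27.3 to 131 ± 26.6 CPM (adjusted p = 0.0209). Mcm2, a subunit of the replication helicase, fell from 743 ± 96.6 to 548 ± 89.2 CPM (adjusted p = 0.0175). The call of Mki67 was lost in 9 alternatives, among them without P14 replicate 1, 2 or 4 and without 8wk replicate 2, 3 or 4. The calls of Cenpe, Plk1 and Mcm2 were lost in 3, 4 and 3. Without 8wk replicate 1, and also among female libraries, 4 mitosis genes were higher. Without P14 replicate 1 or 8wk replicate 2, 0 mitosis genes were higher, and without P14 replicate 1, P14 replicate 3 or 8wk replicate 3, 0 replication genes were. After GC correction 0 replication genes were higher and 4 lower. Without P14 replicate 3, the number of lower genes was 0 in both lists, and without 8wk replicate 3 it was 0 of the mitosis and 1 of the replication genes.

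Of 20 tested Myc and ribosome biogenesis genes, 5 were lower and 0 higher, with a median log2 fold change of -0.10. The all-gene shares were 5.58% lower and 7.01% higher, with a median of 0.05. Without 8wk replicate 1 the list had calls in both directions, 3 higher and 5 lower, and among female libraries 3 higher and 4 lower. Mycn, the MYC relative of early progenitors, measured 244, 249.9, 287 and 251 CPM at P14 and 157, 149, 117 and 161 CPM at 8wk, a log2 fold change of -0.82 ± 0.15 (adjusted p = 0.00181). Polr1b, a subunit of RNA polymerase I, measured 260.4, 269, 294 and 319 CPM at P14 and 165, 186, 156 and 204 CPM at 8wk (log2 fold change -0.69 ± 0.10, adjusted p = 2.21e-04). All P14 libraries were above all 8wk libraries for both, and both calls were kept in every alternative. Pes1 and Noc4l, ribosome assembly factors, fell with log2 fold changes of -0.76 ± 0.20 and -0.49 ± 0.13 (adjusted p = 0.0156 and 0.0161), calls lost without P14 replicate 3, and for Pes1 also without 8wk replicate 2 or 3. Myc itself, named after its values were seen, fell from 496 ± 70.03 to 362 ± 60.9 CPM (adjusted p = 0.0256). The call of Myc was lost in 5 alternatives, among them without P14 replicate 3, 8wk replicate 2 or 8wk replicate 3. Without P14 replicate 3 the list gave 2 lower genes, and without 8wk replicate 2 or 3 it gave 3.

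Genes of DNA methylation gave 3 lower and 0 higher of 9 tested, against 5.58% lower and 7.01% higher of all tested genes. Dnmt3a, a de novo methyltransferase often mutated in blood disease, measured 92.5, 79.4, 118 and 91.7 CPM at P14 and 69.8, 66.1, 43.8 and 66.2 CPM at 8wk, a log2 fold change of -0.63 ± 0.16 (adjusted p = 0.0115). Its groups did not overlap. Tet1, which oxidises methylcytosine, fell from 39.3 ± 5.77 to 23.0 ± 4.11 CPM (adjusted p = 0.0445) and Uhrf1, a partner of the maintenance enzyme, from 472 ± 88.7 to 330.4 ± 69.9 CPM (adjusted p = 0.0260). Without P14 replicate 3 the count was 0, and without 8wk replicate 2 or 3 it was 1. Of 20 Polycomb genes 1 was higher, Eed (adjusted p = 0.0448), a core subunit of PRC2, and 1 lower, Cbx2 (adjusted p = 0.0321), a reader subunit of PRC1. The call of Eed was lost in 15 alternatives and that of Cbx2 in 8.

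Metabolic and stress lists are set beside the all-gene shares of 7.01% higher and 5.58% lower. Of 18 cholesterol synthesis genes 4 were called higher and 0 lower, with a median log2 fold change of -0.007. All 8wk libraries were above all P14 libraries for 7 of them and below for 1, against 7.88% and 8.22% of all tested genes. Among the called genes, Msmo1, a sterol oxidase, rose from 398 ± 49.1 to 636 ± 93.0 CPM (adjusted p = 0.0295). Idi1, an isoprenoid isomerase, rose from 192 ± 26.0 to 299.5 ± 62.2 CPM (adjusted p = 0.0254). The number called higher was 0 without P14 replicate 1, P14 replicate 3, 8wk replicate 2 or 8wk replicate 3. It was 2 without P14 replicate 4 or 8wk replicate 4, and 1 after GC correction. Of 18 glycolysis and hypoxia genes 2 were higher. Bnip3, a hypoxia-induced mitophagy protein gene, measured 24.3, 29.8, 20.4 and 26.1 CPM at P14 and 54.1, 39.0, 72.3 and 65.0 CPM at 8wk (log2 fold change 1.20 ± 0.26, adjusted p = 0.00618). It did not overlap between groups and kept its call in every alternative, whereas Slc16a3, a lactate exporter (adjusted p = 0.0458), lost it in 12. Among 18 p53 targets Fas, the death receptor, rose from 0.758 ± 0.107 to 2.27 ± 0.322 CPM (log2 fold change 1.58 ± 0.40, adjusted p = 0.0136), a call lost without P14 replicate 3, and Btg2, an antiproliferative gene, fell from 49.7 ± 4.48 to 35.8 ± 4.96 CPM (adjusted p = 0.00388). The summed level of the p53 list was 711 to 828 CPM at P14, 1018 CPM in 8wk replicate 1 and 669 to 748 CPM in the other 8wk libraries. With 8wk replicate 1 left out, 4 p53 targets were lower instead of 1, and the median log2 fold change was -0.45 instead of -0.15.

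In the inflammatory and NF-kB list, 1 of 23 genes was higher and 1 lower, against 7.01% and 5.58% of all tested genes. Without 8wk replicate 1, 1 member of this list was higher and 2 lower. Tlr4, the receptor for bacterial lipopolysaccharide, measured 14.8, 18.0, 14.0 and 16.8 CPM at P14 and 28.04, 28.1, 30.3 and 26.1 CPM at 8wk, a log2 fold change of 0.82 ± 0.11 (adjusted p = 1.56e-04). The groups did not overlap and the call was kept in every alternative. Tnfrsf1a, a TNF receptor, fell from 117 ± 10.8 to 88.9 ± 11.7 CPM (adjusted p = 0.0184), a call lost without P14 replicate 3, 8wk replicate 2 or 8wk replicate 3. Il1b, the cytokine interleukin 1 beta, measured 0.473, 2.09, 0.602 and 0.236 CPM at P14 and 8.12, 2.73, 3.21 and 2.17 CPM at 8wk and was not called (adjusted p = 0.105). Of 16 immediate early and heat shock genes edgeR and limma-voom called 0 and DESeq2 called 1 higher, and 1 was higher at an unadjusted p under 0.05. Sdsl, a serine dehydratase-like enzyme gene outside the lists, was among the largest rises, at 1.63, 1.85, 1.57 and 0.489 CPM at P14 and 11.9, 11.9, 8.66 and 13.3 CPM at 8wk (log2 fold change 3.04 ± 0.44, adjusted p = 2.40e-04), and its groups did not overlap.

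The ME cells of the same ages share no library with the controls and give a separate measure of the age difference. In them edgeR called 1178 genes higher at 8wk than at P14 (6.22%) and 988 lower (5.22%), 2166 in all, against 1357 without 8wk ME replicate 2. Of genes higher in controls 413 were also higher in ME, which is 31.1% of the control list and 35.1% of the ME list. Of genes lower in controls 344 were also lower in ME, which is 32.5% and 34.8%. Only 3 genes were higher in controls and lower in ME, and 0 the reverse. The sign in ME was the same for 91.4% of genes called higher in controls and for 88.7% of those called lower, where 46.4% and 53.5% of all tested genes had that sign in ME.

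Most fetal and interferon genes called in controls were called in the same direction in ME. Igf2bp3 fell there with a log2 fold change of -5.13 ± 0.21 (adjusted p = 2.69e-13), Lin28b with -4.03 ± 0.30 (adjusted p = 1.46e-08) and Hmga2 with -2.52 ± 0.17 (adjusted p = 3.25e-09). Trbc2 fell with -5.07 ± 0.60 (adjusted p = 1.91e-05) and Ccr9 with -3.09 ± 0.42 (adjusted p = 1.06e-04). Usp18 rose by 2.40 ± 0.35 log2 (adjusted p = 1.83e-04) and H2-Q7 by 2.25 ± 0.46 (adjusted p = 0.00325). In ME 26 of 31 interferon response genes and 15 of 20 class I genes were higher, 20 and 12 of them also in controls. Of the fetal list 6 of 11 were lower in ME and 5 of these were lower in both.

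**Figure D5:**
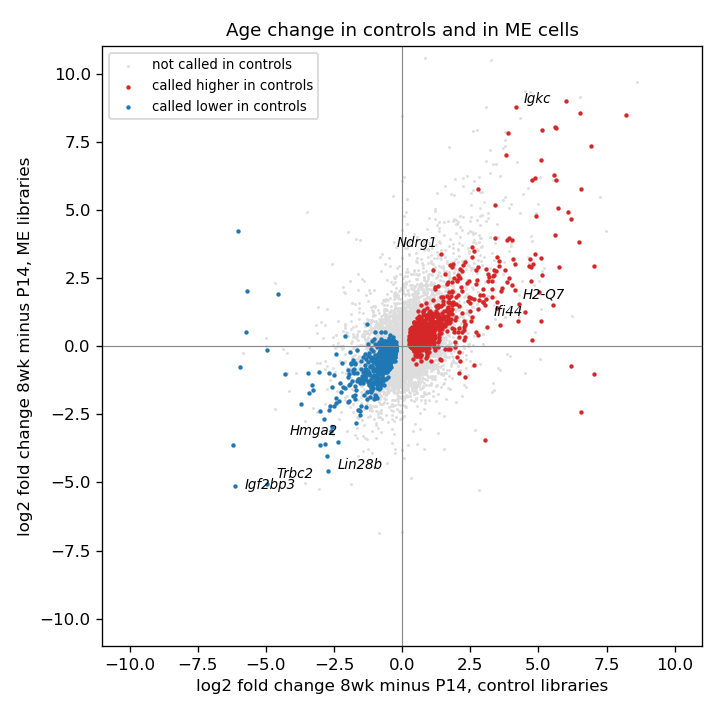
Log2 fold change, 8wk minus P14, in control libraries (horizontal axis) and in ME libraries (vertical axis) for each tested gene, with genes called in controls in red or blue; 2 genes lie outside the axes. Most red points lie above 0 and most blue points below 0 on the vertical axis, as in the shares of 91.4% and 88.7%.

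The difference between the age effect in controls and that in ME was tested directly, and edgeR called 57 genes (0.301%), 20 with a higher effect in controls (0.106%) and 37 with a lower one (0.195%). At an unadjusted p under 0.05 there were 2202. Kit, not called in controls, rose in ME by 1.17 ± 0.17 log2 (adjusted p = 1.52e-04), and the difference of controls minus ME was -1.48 ± 0.24 (adjusted p = 0.0162), called in every alternative run for it. Hoxa10 differed by 1.26 ± 0.21 (adjusted p = 0.0213), with -0.84 ± 0.15 in ME, a call lost without 8wk control replicate 2 or P14 ME replicate 4. Skida1 differed by 1.99 ± 0.41 (adjusted p = 0.0376), with -1.97 ± 0.28 in ME, a call lost without 12 of the 16 libraries in turn. Over all tested genes 6.22% were higher in ME and 7.01% in controls. In the glycolysis and hypoxia list 15 of 18 genes were higher in ME against 2 in controls. Of the 18, 6 were called for the difference itself. Hk2, the hexokinase that starts glycolysis, was one of them at -1.03 ± 0.22 (adjusted p = 0.0460), and the others, named after their values were seen, were Aldoa, Egln3, Eno1, Pfkp and Pkm, at differences of -1.16 to -0.93. Each of these 6 calls was lost without 8wk control replicate 2, P14 ME replicate 3, P14 ME replicate 4 or 8wk ME replicate 2, and all but that of Aldoa also without other libraries. In the NF-kB list 18 of 23 were higher in ME against 1 in controls, but edgeR and limma-voom called 0 members for the difference and DESeq2 called 6, with 15 at an unadjusted p under 0.05. The count of 57 over all genes was 369 without 8wk control replicate 1 and 224 without 8wk ME replicate 4. It fell to between 4 and 33 without any 1 of control replicates 2, 3 and 4 at P14, control replicates 2 and 4 at 8wk, ME replicates 2, 3 and 4 at P14 or ME replicates 1, 2 and 3 at 8wk.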

How the data were processed

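Bulk RNA sequencing measured gene expression in 24 libraries, 4 in each of 6 groups. The deposited table holds whole-number read counts per gene, not normalized by the authors. Per the submitters' processing notes, STAR 2.7.9a, Subread and featureCounts 2.0.3 were used. The annotation release and the strand setting were not given in the sources used here, so reads of overlapping or antisense genes cannot be told apart. Groups were taken from the labels. Of 55774 lines, 55487 were kept, since 168 identifiers were repeated, each time with the same counts.

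From these counts, edgeR 4.0.16 (R 4.3.3) fitted its quasi-likelihood model to all 24 libraries with TMM scaling. Genes passed filterByExpr with a minimum count of 10. P-values were adjusted by the Benjamini-Hochberg method over all tested genes, and a gene was called at an adjusted p under 0.05. CPM values use the TMM-scaled library sizes. Coordinates are from GENCODE M21 (GRCm38) and sequences from RefSeq (GRCm38.p6) or that genome. The test was tried on simulated data.

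Genes were named by rule. The first were the called genes with the 12 largest rises and the 12 largest falls, provided that the higher group reached 5 CPM and the groups did not overlap. Clone-type symbols, pseudogenes and sex-linked genes were passed over in this ranking. Also named were up to 4 members of each list by adjusted p and a few fixed genes. The members and lists were chosen with earlier results of these data known. Alternatives were other scalings, filters, a GC correction, DESeq2 1.42.0, limma-voom 3.58.1, only the 8 libraries, a replicate block, a Y-linked covariate, female libraries only (added after seeing the data) and leaving out each library. Results for some genes are not reported here.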

Additional observations from a re-analysis of the deposited data

Results flagged for a closer look

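In 31 of 270 tests of a gene in a group of 4, 1 library lay far from the other 3 by Dixon's test, where chance gives about 1 in 20. Of these 31, 18 were high values in 8wk control replicate 1. For genes of mature myeloid cells these were, in CPM, C1qb at 1.62 (other libraries 0 to 0), Ccr2 at 32.7 (other libraries 3.06 to 4.74), Cd14 at 4.69 (other libraries 0.559 to 1.18), Cd177 at 16.0 (other libraries 0.0858 to 0.314), Chil3 at 69.8 (other libraries 1.52 to 2.83), Lcn2 at 27.6 (other libraries 0.733 to 0.837), Lyz2 at 552 (other libraries 137 to 181), Mmp9 at 12.2 (other libraries 0.0698 to 0.944) and Retnlg at 16.2 (other libraries 0 to 0.603). For MHC class II genes they were Cd74 at 100.3 (other libraries 18.3 to 27.2) and H2-Eb1 at 14.8 (other libraries 1.96 to 2.98) CPM. The other high values of that library were Bcl11a at 78.4 (other libraries 54.7 to 58.4), Hba-a2 at 9.32 (other libraries 0.0858 to 0.402), Hnf4a at 13.4 (other libraries 9.15 to 9.74), Lepr at 0.851 (other libraries 0.0262 to 0.0698), Ndnf at 3.17 (other libraries 1.16 to 1.44), Pes1 at 133 (other libraries 76.1 to 85.4) and Vcam1 at 14.2 (other libraries 1.05 to 1.55) CPM. In 8wk control replicate 1, Gzmb at 9.46 (other libraries 76.3 to 87.1) CPM lay below the rest. In 8wk control replicate 3, Igkc at 30.1 (other libraries 9.21 to 12.6) CPM lay above the rest. In 8wk control replicate 3, Dnmt3a at 43.8 (other libraries 66.1 to 69.8) and Mllt1 at 9.90 (other libraries 19.0 to 20.7) CPM lay below the rest. In P14 control replicate 1, Hba-a2 at 1.14 (other libraries 0 to 0.0299) CPM lay above the rest. In P14 control replicate 1, Hoxb5 at 0.172 (other libraries 0.354 to 0.391) and Igf2bp3 at 64.0 (other libraries 71.4 to 71.5) CPM lay below the rest. In P14 control replicate 2, Cd177 at 0.314 (other libraries 0 to 0), Chil3 at 1.39 (other libraries 0 to 0.0859) and Retnlg at 0.239 (other libraries 0 to 0) CPM lay above the rest. In P14 control replicate 3, H2-Q7 at 34.7 (other libraries 6.51 to 10.2) and Mycn at 287 (other libraries 244 to 251) CPM lay above the rest. In P14 control replicate 4, Pbx2 at 16.7 (other libraries 27.3 to 28.7) CPM lay below the rest. 

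For 4 genes named in the report the age effect differed between controls and ME in a test of the difference itself (edgeR, controls minus ME). The difference was -1.48 ± 0.24 for Kit, 1.26 ± 0.21 for Hoxa10, 1.99 ± 0.41 for Skida1 and -1.03 ± 0.22 for Hk2 (log2, SE). The difference for Kit was called in all alternatives run, and for the other genes some left-out libraries ended the call.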

How the results depend on the processing

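With all 24 libraries 2384 genes were called, and 2166 for the ME age effect. Without a filter 1483 genes were called, 774 of them higher. Fitting only the 8 libraries compared gave 1092, 477 higher and 615 lower. Adding the replicate block to that fit gave 540 calls, 297 higher and 243 lower. Deviations from the group means gave correlations of 0.22, -0.07, -0.03 and 0.07 between same-numbered libraries. Differently numbered libraries gave -0.24 to 0.24. Whether the replicate numbers pair the samples was not given in the sources used here, and 4 correlations cannot decide it. Leaving out 1 library gave 929 to 3115 calls, 421 to 1870 higher and 440 to 1245 lower. For the ME age effect it gave 1357 to 2753, and for the difference between controls and ME 4 to 369. DESeq2 called 298 genes for that difference. The share of called genes that were higher was 43.2% with scaling by library size alone, 43.7% with the 8 libraries only and 37.1% to 60.03% without 1 library. The called MHC class II genes were 3 without a filter, 2 with limma-voom, 2 with the 8 libraries only, 3 with the Y-linked covariate, 1 among female libraries and 1 to 5 without 1 library. Some of these fits held fewer samples or more tested genes than the main fit. The cause of the shifts was not tested. Of 101 called genes chosen by the naming rule, 43 were called in every alternative and 58 were lost in at least 1, and 0 changed direction. Depth limits genes with few counts, where 3 counts over the P14 group, taken as independent, correspond to 0.0125 CPM.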
